A study of Mus musculus with 83 samples.

Results

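The genes described here are the 10 MHC class II genes H2-Aa, H2-Ab1, H2-Eb1, H2-DMa, H2-DMb1, H2-DMb2, H2-Oa, H2-Ob, Cd74 and Ciita, taken by symbol from a colon count table of 37764 genes. All 10 were found and all 10 passed the filter on low counts that left 18325 genes for testing. RNA-seq was carried out on the proximal colon of 83 male C57BL/6J/Ukj mice, with 1 library per mouse. No treatment or engineered allele is named for them, and the paper states that the samples stem from a larger study of several variables. The groups held 16 mice each aged 3, 9 and 15 months, 17 mice aged 24 months and 18 mice aged 28 months, and the study asked whether the colon ages evenly or in steps. Each library is whole tissue from 1 sex and 1 strain, so that fewer cells of a type and less RNA per cell cannot be told apart, here and in all results below.

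MHC class II molecules present peptides from endocytosed proteins to CD4 T cells. Their α and β chains assemble in the endoplasmic reticulum with the invariant chain, encoded by Cd74, which fills the peptide groove and directs the complex to endosomes. There the heterodimer encoded by H2-DMa and the H2-DMb genes removes the remaining invariant chain fragment and edits the bound peptide, and the heterodimer of H2-Oa and H2-Ob restrains this exchange. Ciita encodes the master regulator of the family, which does not bind DNA itself but is recruited to factors bound at the X and Y boxes of class II promoters and is induced by interferon gamma. B cells, dendritic cells and macrophages are the main carriers of class II molecules, and epithelial cells of the intestine can also make them.

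On GRCm38, 8 of the genes lie within the class II region of chromosome 17. From its lower end these are H2-Oa (ENSMUSG00000024334, 34092340 to 34095234), H2-DMa (ENSMUSG00000037649, 34119541 to 34139101), H2-DMb2 (ENSMUSG00000037548, 34143307 to 34151555), H2-DMb1 (ENSMUSG00000079547, 34153072 to 34160230) and H2-Ob (ENSMUSG00000041538, 34238903 to 34254414). H2-Ab1 (ENSMUSG00000073421, 34257689 to 34269419), H2-Aa (ENSMUSG00000036594, 34282744 to 34287823) and H2-Eb1 (ENSMUSG00000060586, 34305867 to 34316674) follow, and H2-Aa is the one of the 8 on the minus strand. Ciita (ENSMUSG00000022504) lies on chromosome 16 from 10480059 to 10528418, and Cd74 (ENSMUSG00000024610) lies outside both regions. All 10 are annotated as protein-coding, and H2-DMb1 and H2-DMb2, whose changes differ in sign below, are direct neighbours among the members.

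The X and Y boxes of the family could be read in the promoters. Of the 10 genes, 7 had an entry in the RefSeq promoter table used here (GRCm38.p6). H2-Ab1, Cd74 and Ciita had none. A search for the X letters AAC followed after 20 to 28 bases by the Y core TGATTGG, on both strands of the 250 bases upstream of the start, was set after the sequences had been seen. The Y core holds the CCAAT box in reverse. A match was present in 6 of the 7 genes, with 23 to 26 bases between both parts, against 230 of 27025 genes of the table (0.851%), while the Y core alone was present in 8.381% of the genes. Neither promoter entry of H2-DMa held the pair. In H2-DMb1 the match lies inside an annotated 5′ untranslated exon and is not printed. The other 5 windows are shown because the 2 genes printed first rose with age in the results below and the 3 others fell. Each is written 5′ to 3′ on the strand of its gene, the capitals mark the X letters and the Y core, and the coordinates are those of the window on GRCm38.
H2-Aa (chr17:34287855-34287914, minus strand): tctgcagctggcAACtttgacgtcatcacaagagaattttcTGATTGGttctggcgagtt
H2-Eb1 (chr17:34305766-34305824, plus strand): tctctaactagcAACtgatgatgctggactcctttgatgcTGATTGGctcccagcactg
H2-DMb2 (chr17:34145116-34145175, plus strand): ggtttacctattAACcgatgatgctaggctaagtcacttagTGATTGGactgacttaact
H2-Oa (chr17:34092293-34092340, plus strand): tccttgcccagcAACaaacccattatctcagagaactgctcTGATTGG
H2-Ob (chr17:34238808-34238864, plus strand): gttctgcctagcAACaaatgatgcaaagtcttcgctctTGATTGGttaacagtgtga
The Y core ended between 38 and 85 bases before the RefSeq start in the 6 genes with a match. The element was thus present on both sides of the split in expression described below. A match of these letters is a description of the sequence and not a test of binding.

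Between 23026370 and 75838290 read pairs were counted per mouse, with a median of 35495123, and all 3 library batches held mice of every age. In each of the 649 pairs of mice of 1 age the counts differed by more than counting noise. Pairs of different ages were not compared in this way. The markers of epithelium summed to between 5829 and 11350 CPM (counts relative to each normalized library size) per mouse. Those of smooth muscle summed to between 736 and 4625 CPM, so that both tissues of the colon wall were present in every library. The smooth muscle sum was uneven in young mice, from 736 to 4440 CPM at 3 months and from 1079 to 4625 CPM at 9 months. At 28 months it ran from 2190 to 4053 CPM. Markers of B cells summed to between 8.06 and 117 CPM, those of macrophages to between 167 and 410 CPM and those of dendritic cells to between 14.6 and 35.3 CPM. Replicate 1 of the 28-month mice (57850994 read pairs) had the highest CPM of its age in 7 of the 10 class II genes, and replicate 6 of the 24-month mice had the lowest of its age in 9. Both were kept, and results that rest on the former are given with and without it.

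Per unit of transcript length, Cd74 was the most abundant member, with a TPM (length-scaled transcript share) of 1011 ± 550 (SD, n = 83). The classical chains followed with 284 ± 114 TPM for H2-Eb1, 235 ± 104 TPM for H2-Ab1 and 213 ± 129 TPM for H2-Aa. H2-DMb1 (44.4 ± 28.2 TPM) and H2-DMa (24.6 ± 10.3 TPM) came next. The members at the lower end were H2-DMb2 (7.35 ± 3.61 TPM), Ciita (5.46 ± 3.02 TPM), H2-Ob (3.39 ± 2.096 TPM) and H2-Oa (3.19 ± 1.48 TPM). From Cd74 down to H2-DMa each gene lay above its next neighbour in at least 74 of the 83 mice, with the fewest for H2-Ab1 over H2-Aa. H2-Ob lay above H2-Oa in only 43 of 83 mice and the log2 ratio of their TPM (0.04 ± 0.51) was within its spread, as it was for H2-DMb2 over Ciita (0.42 ± 0.77, 62 of 83 mice) and for Ciita over H2-Ob (0.77 ± 0.91, 67 of 83 mice). C57BL/6 mice lack a functional Ea chain, the α chain that would pair with the product of H2-Eb1, and the pseudogene H2-Ea-ps had at most 2 counts in any mouse and none in 74 of 83.

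**Figure D1:**
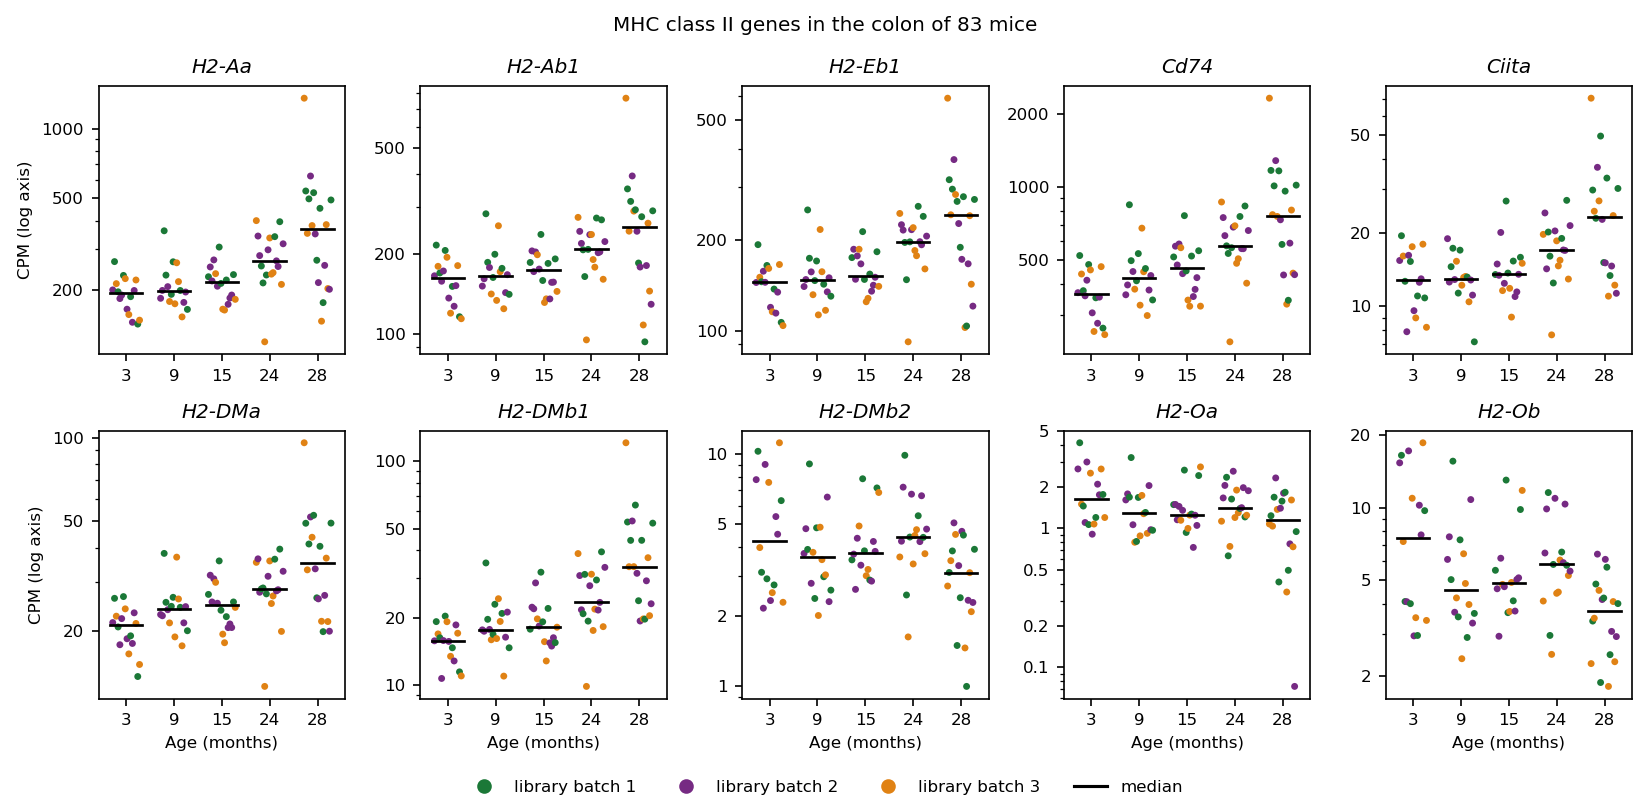
Level of each MHC class II gene in each of the 83 mice, in CPM on a log axis, by age in months. Points are mice coloured by library batch and bars are medians. The 28-month points of H2-Ab1 reach from 93.8 to 767 CPM and the highest one, replicate 1, also tops 6 other panels, whereas the 28-month points of H2-Ob stay between 1.81 and 6.43 CPM.

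All 10 genes differed among the 5 ages in an F-test of the 4 age coefficients (quasi-likelihood test of edgeR, p-values adjusted by the Benjamini-Hochberg method over all genes, threshold 0.1, as in all calls below), with adjusted p-values between 1.38e-10 for H2-DMb1 and 0.0762 for H2-Oa, against 54.9% of all genes. The family did not move as 1 block. At 28 against 3 months 7 genes rose and 3 fell, so that all 10 were called against 49.4% of all genes tested (23.5% higher and 25.9% lower). Each of the 10 kept its direction within all 3 batches. At 24 against 3 months the same 7 genes were called higher and none lower, against 34.5% of all genes (16.7% higher and 17.8% lower). The median log2 fold change of the members was 0.84 at 28 months and 0.45 at 24 months, against -0.009 and -0.006 over all genes. These comparisons share the 3-month mice.

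No member was called between 3 and 9 months, where 8.69% of all genes were, between 3 and 15 months (7.75% of all genes), between 9 and 15 months (0.431%) or between 15 and 24 months (13.5%). By direction, 3.64% of all genes were higher and 5.05% lower at 9 against 3 months, 4.25% and 3.5% at 15 against 3 months, 0.251% and 0.18% at 15 against 9 months and 6.28% and 7.24% at 24 against 15 months. At an unadjusted p-value below 0.05, 1, 3, 0 and 4 members would have passed in these comparisons, and DESeq2 called 0, 0, 0 and 1. From 9 to 24 months 4 genes rose (Cd74, H2-Aa, H2-Eb1 and H2-DMb1) and none fell, against 15.5% of all genes (8.93% higher and 6.55% lower). Their log2 fold changes were 0.44, 0.43, 0.37 and 0.44 with adjusted p-values between 0.0649 and 0.0782, and none was called when genes with low counts were kept. From 9 to 28 months 7 rose and H2-Ob fell (-0.59 ± 0.24, adjusted p = 0.0491), where 40% of all genes were called (20% in each direction). From 15 to 28 months 7 rose, while H2-DMb2 (-0.46 ± 0.21, adjusted p = 0.0882) and H2-Ob (-0.64 ± 0.24, adjusted p = 0.0309) fell (42.4% of all genes, 20.2% higher and 22.2% lower). The fall of H2-DMb2 and H2-Ob in that comparison was -0.06 and -0.07 within batch 2. From 24 to 28 months 5 rose and 2 fell (11.7% of all genes, 5.66% higher and 6.01% lower). Among the 5 that rose there, H2-DMb1 changed by 0.63 ± 0.16, H2-Aa by 0.54 ± 0.16, Cd74 by 0.45 ± 0.16 and H2-DMa by 0.37 ± 0.13. Within batch 2 these 4 values were 0.18, 0.04, 0.00 and -0.03. Without the 28-month replicate 1 only H2-DMb1 of the 5 stayed called, and the count was 3 (1 higher and 2 lower). Of all genes 2028 of 18312 were called there. A fit of the 15- and 24-month mice alone called 6 of the members higher at 24 months and 3339 of 17506 genes in either direction.

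The course over the 5 ages was also compared with a straight line. No member departed from it after adjustment (16.2% of all genes did), although 5 of the 10 had an unadjusted p-value below 0.05, the lowest adjusted value was 0.108 for H2-DMb1, and DESeq2 called 2.

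**Figure D2:**
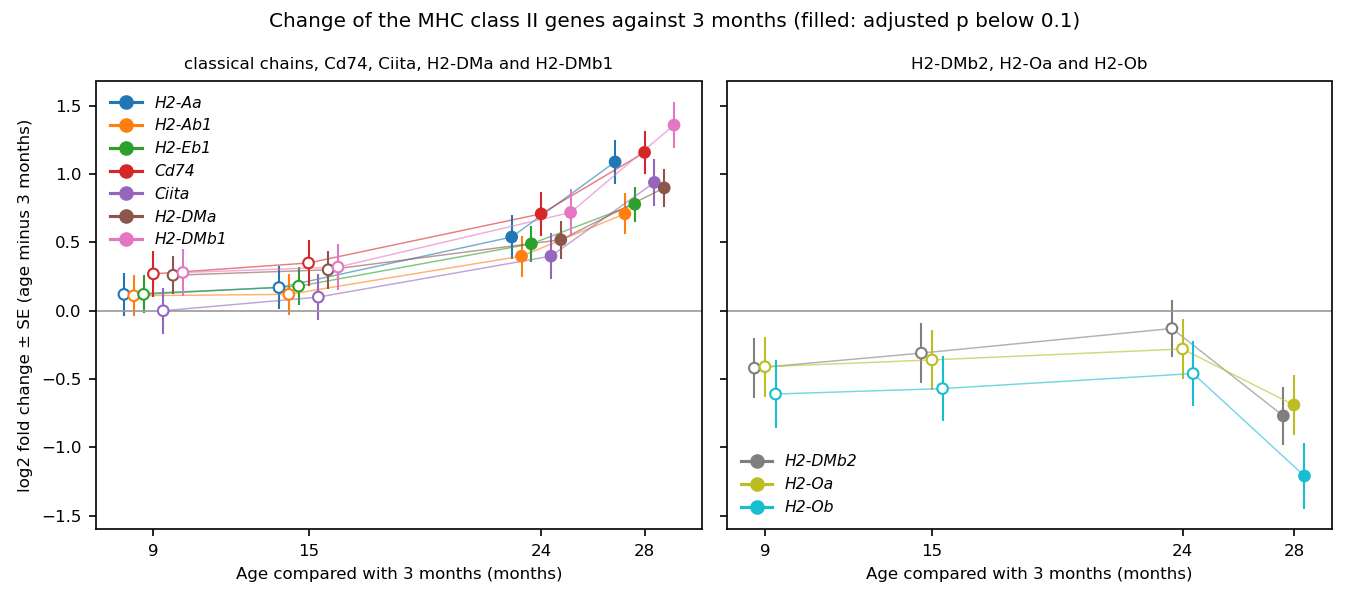
Log2 fold change of each MHC class II gene at 9, 15, 24 and 28 months against 3 months, with bars of 1 standard error from the edgeR fit. Filled symbols passed an adjusted p-value of 0.1. The 7 genes in the left panel are called at 24 and 28 months and reach between 0.71 and 1.36, and the 3 genes in the right panel are called at 28 months alone and reach between -0.69 and -1.21.

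The genes of the classical chains, H2-Aa, H2-Ab1 and H2-Eb1, all rose. The products of H2-Aa and H2-Ab1 pair to form the peptide groove at the cell surface. The product of H2-Eb1 lacks its α chain partner in this strain, as given above, so its rise cannot be read as more surface molecules. Protein was not measured for any of them. H2-Ab1 lay between 115 and 216 CPM at 3 months with a median of 162 CPM. Its median was 165 CPM at 9 months (range 125 to 283 CPM), 174 CPM at 15 months (132 to 237 CPM), 208 CPM at 24 months (95.4 to 274 CPM) and 252 CPM at 28 months (93.8 to 767 CPM). The groups overlapped, and at 28 months 11 of 18 mice were above every 3-month mouse while 2 were below all of them. The fitted rise from 3 to 28 months was 0.71 ± 0.15 on the log2 scale (SE, adjusted p = 7.1e-05, 1.64-fold), and it was 0.51, 0.47 and 0.67 in the 3 batches. Without the 28-month replicate 1 it was 0.54.

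H2-Aa, which encodes the α chain that pairs with the product of H2-Ab1, rose more than its partner in the same fit. Its median was 194 CPM at 3 months (143 to 266 CPM), 198 CPM at 9 months (153 to 361 CPM), 217 CPM at 15 months (164 to 307 CPM), 268 CPM at 24 months (120 to 400 CPM) and 367 CPM at 28 months (147 to 1354 CPM). At 28 months 12 of 18 mice exceeded the highest 3-month mouse and none fell below the lowest. The rise was 1.09 ± 0.16 (log2 ± SE, adjusted p = 7.98e-08). H2-Eb1 went from a median of 145 CPM at 3 months (104 to 193 CPM) through 147 CPM at 9 months, 152 CPM at 15 months and 197 CPM at 24 months to 242 CPM at 28 months (102 to 592 CPM), a rise of 0.78 ± 0.13 (adjusted p = 2.11e-06), and again 11 of the 18 oldest mice exceeded all of the youngest. The difference between the rises of H2-Aa and H2-Ab1 was not tested.

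Cd74, the invariant chain, followed the classical chains. Its median was 364 CPM at 3 months (248 to 524 CPM), 423 CPM at 9 months (297 to 846 CPM), 466 CPM at 15 months (325 to 763 CPM), 574 CPM at 24 months (232 to 868 CPM) and 764 CPM at 28 months (331 to 2313 CPM). It had already risen by 24 months, by 0.71 ± 0.16 (log2 ± SE, adjusted p = 0.000712), and 13 of the 17 mice of that age exceeded all 3-month mice. By 28 months the rise was 1.16 ± 0.16 (adjusted p = 1.94e-08, 2.24-fold), with values of 1.10, 0.89 and 1.03 within the batches.

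Ciita, the transactivator, was called at 24 and 28 months against 3 months. Its median was 12.8 CPM at 3 months (7.88 to 19.4 CPM), 12.99 CPM at 9 months (7.17 to 18.9 CPM) and 13.5 CPM at 15 months (9.04 to 26.9 CPM). At 24 months it was 17.0 CPM (7.65 to 27.1 CPM) and at 28 months 23.2 CPM (11.01 to 70.7 CPM). The log2 fold change against 3 months was -0.00 at 9 months and 0.10 at 15 months, neither called, then 0.40 ± 0.17 at 24 months (adjusted p = 0.0682) and 0.94 ± 0.17 at 28 months (adjusted p = 4.36e-06). From 24 to 28 months Ciita rose by 0.54 ± 0.16 (adjusted p = 0.0282), and that change was -0.03 within batch 2 against 0.47 and 0.69 in the other batches. This later change was not called without the 28-month replicate 1 (0.37, adjusted p = 0.115).

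The peptide exchange genes split. H2-DMa, the α chain of the exchange factor, went from a median of 20.9 CPM at 3 months (13.7 to 26.6 CPM) through 24.1 CPM at 9 months, 24.7 CPM at 15 months and 28.3 CPM at 24 months to 35.1 CPM at 28 months (19.9 to 95.7 CPM). Of the 17 mice at 24 months 14 exceeded all of the 3-month mice, and the rise at 28 months was 0.90 ± 0.14 (log2 ± SE, adjusted p = 1.26e-07). H2-DMb1, which encodes a β chain of that factor, had the largest rise of the family among the 10 fitted values. Its median was 15.8 CPM at 3 months (10.7 to 20.3 CPM), 17.7 CPM at 9 months (10.98 to 35.1 CPM), 18.2 CPM at 15 months (12.8 to 31.9 CPM), 23.4 CPM at 24 months (9.88 to 39.4 CPM) and 33.8 CPM at 28 months (19.3 to 121 CPM). All 18 of the 28-month mice were above the 3-month median and 15 were above every 3-month mouse, a change of 1.36 ± 0.17 (adjusted p = 3.63e-10, 2.56-fold).

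H2-DMb2, the neighbouring gene for a second DM β chain, fell. Its median was 4.24 CPM at 3 months (2.17 to 11.2 CPM), 3.63 CPM at 9 months (2.02 to 9.10 CPM), 3.77 CPM at 15 months (2.62 to 7.85 CPM), 4.40 CPM at 24 months (1.63 to 9.91 CPM) and 3.09 CPM at 28 months (0.999 to 5.07 CPM). The change at 28 months against 3 months was -0.77 ± 0.21 (log2 ± SE, adjusted p = 0.00238) and against 24 months -0.64 ± 0.21 (adjusted p = 0.0491). The 2 genes share 179 stretches of 100 bases in their annotated transcripts, 11.34% of those of H2-DMb1 and 10.28% of those of H2-DMb2. In these stretches uniquely mapped reads may be lost or split. No other pair of members shares such a stretch.

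The ratio of H2-DMb1 to H2-DMb2 in each mouse ranged from 1.52 to 7.0 at 3 months, from 2.16 to 9.14 at 9 months, from 2.16 to 8.38 at 15 months, from 2.103 to 12.62 at 24 months and from 4.15 to 44.6 at 28 months. Its log2 value was 1.77 ± 0.77 at 3 months (SD, n = 16), 2.36 ± 0.61 at 9 months, 2.23 ± 0.51 at 15 months and 2.45 ± 0.68 at 24 months. At 28 months it was 3.65 ± 0.81 (SD, n = 18), and 17 of the 18 mice were above the highest 3-month mouse. The pair was chosen after both changes were known, so the ratio is given without a test.

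H2-Oa and H2-Ob, which encode both chains of the factor that restrains peptide exchange, fell as well. H2-Ob was spread widely in young mice, from 2.94 to 18.7 CPM at 3 months with a median of 7.49 CPM. Its median was 4.54 CPM at 9 months (2.36 to 15.6 CPM), 4.86 CPM at 15 months (2.93 to 13.1 CPM), 5.82 CPM at 24 months (2.46 to 11.6 CPM) and 3.74 CPM at 28 months (1.81 to 6.43 CPM). None of the 18 mice at 28 months reached the 3-month median and 6 were below every 3-month mouse. The change was -1.21 ± 0.24 (log2 ± SE, adjusted p = 3.12e-05, 0.433-fold), with -0.75, -0.88 and -1.27 within the batches. The step from 24 to 28 months alone was -0.75 ± 0.24 (adjusted p = 0.0379). At 9, 15 and 24 months the values against 3 months were -0.61, -0.57 and -0.46, none of which passed.

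H2-Oa was low in all groups, with a median of 1.62 CPM at 3 months (0.908 to 4.13 CPM), 1.29 CPM at 9 months, 1.26 CPM at 15 months, 1.41 CPM at 24 months and 1.15 CPM at 28 months (0.0730 to 2.31 CPM). The lowest value stems from 2 read pairs in replicate 17 of the 28-month mice. H2-Oa fell by 0.69 on the log2 scale from 3 to 28 months (SE 0.22, adjusted p = 0.00705) and was lower in each batch. From 24 to 28 months the value was -0.41 ± 0.22 and did not pass (adjusted p = 0.249).

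The order of levels per length therefore differed between young and old mice. At 3 months the mean TPM of H2-DMb2 was 9.22 ± 5.36 (SD, n = 16) and that of Ciita 4.27 ± 1.23, whereas at 28 months they were 5.45 ± 2.09 and 8.41 ± 4.99 (n = 18). H2-Ob averaged 4.93 ± 3.18 TPM at 3 months and 2.17 ± 0.81 TPM at 28 months, and H2-Oa 4.08 ± 1.98 and 2.54 ± 1.33 TPM. The mean of H2-Ab1 was 191 ± 40.1 TPM at 3 months and 319 ± 181 TPM at 28 months. For H2-Aa it was 155 ± 30.2 and 338 ± 222.5 TPM.

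The spread between mice of 1 age widened for the genes that rose. The SD of log2 CPM of H2-Aa was 0.26 at 3 months and 0.79 at 28 months, a ratio of 3.00 that 0.0928% of all genes tested exceeded. For H2-Eb1, H2-Ab1 and H2-DMb1 the ratio was 2.59, 2.51 and 2.45, for H2-DMa and Cd74 2.22 and 2.13 and for Ciita 1.82. H2-Oa had a ratio of 1.65 on this log2 scale, which includes the 28-month mouse with 2 read pairs. In CPM the SD of H2-Oa was 0.901 at 3 months and 0.599 at 28 months. H2-DMb2 (0.76) and H2-Ob (0.56) were less spread at 28 than at 3 months. In all, 8 of the 10 members had a ratio above 1.5 against 10.27% of all genes, with a median of 2.18 against 0.97. Without the 28-month replicate 1 the ratio was still above 1.5 in 8 members and the median was 1.83. These are descriptions, with no test.

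The highest values of the rising genes at 28 months came from the same mouse. The lowest values of the 10 members at that age came from replicates 10, 12, 13 and 17, with 5 of them in replicate 12. In replicate 1 of the 28-month mice H2-Ab1 was at 767 CPM, Cd74 at 2313 CPM, H2-Aa at 1354 CPM and Ciita at 70.7 CPM, each the highest of all 83 mice. H2-Ob was at 2.25 CPM in that mouse, below the median of its age. In replicate 12 of the same age H2-Aa (147 CPM), Cd74 (331 CPM) Ciita (11.01 CPM), H2-DMa (21.6 CPM) and H2-DMb1 (19.8 CPM) were within the range of the 3-month mice, and H2-Ab1 (109 CPM) and H2-Eb1 (102 CPM) were below it. Without replicate 1 the counts of called members were 10 at 28 against 3 months, 8 against 9 months and 8 against 15 months. Over all genes 8902, 7175 and 7526 of 18312 were called. At 28 against 24 months the count of members dropped from 7 to 3. That of all genes went from 2139 of 18325 to 2028 of 18312. H2-DMb1 (0.43), H2-DMb2 (-0.63) and H2-Ob (-0.72) stayed called (adjusted p between 0.0444 and 0.0616). Cd74 (0.27), H2-Aa (0.32), H2-DMa (0.23) and Ciita (0.37) did not. A fit of the 24- and 28-month mice alone also called 3 members, 1 higher and 2 lower, and 2023 of 17661 genes.

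To see how the members vary between mice of 1 age, log2 CPM was correlated over the 83 mice after removing the means of age and batch. H2-Ab1 moved closely with H2-Eb1 (r = 0.99, ρ = 0.98), Cd74 (r = 0.98, ρ = 0.97), H2-Aa (r = 0.97, ρ = 0.96), H2-DMa (r = 0.95, ρ = 0.93), H2-DMb1 (r = 0.88, ρ = 0.83) and Ciita (r = 0.81, ρ = 0.77). For each of these 6 the permutation p-value was 1e-05, the smallest that 100000 resamples can give (adjusted p = 2.53e-05 for r and 2.24e-05 for ρ over 38 relations, two-sided), and the same adjusted values apply to the other relations with that p-value. Without the 2 mice farthest from the median of H2-Ab1 the 6 values of r were between 0.77 and 0.98. Within batches they were between 0.71 and 0.99. Within ages the r with Ciita varied most, from 0.33 at 9 months to 0.92 at 28 months.

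H2-Ab1 was less closely related to the genes that fell. Its r was 0.49 with H2-Oa (ρ = 0.48, permutation p = 2e-05 and 1e-05), 0.45 with H2-DMb2 (ρ = 0.46, permutation p = 2e-05 for both) and 0.29 with H2-Ob (ρ = 0.36, permutation p = 0.00702 and 0.00081). Without the 2 farthest mice r was 0.52, 0.45 and 0.37, and within the batches the r with H2-Ob was 0.28, 0.24 and 0.37. After adjustment over the 38 relations the largest p-value of these 3 was 0.0124.

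H2-Ob, added as a second reference after its fall had been seen, moved with H2-DMb2 (r = 0.94, ρ = 0.94) and H2-Oa (r = 0.78, ρ = 0.87), each with a permutation p of 1e-05. Without the 2 farthest mice these r were 0.93 and 0.77, and within the batches the r with H2-DMb2 was between 0.92 and 0.97 and that with H2-Oa between 0.68 and 0.89. It was closest to the mean log2 CPM of 9 B cell markers, with r = 0.96 and ρ = 0.96 (permutation p = 1e-05, adjusted p = 2.53e-05), r = 0.95 without the 2 farthest mice, and between 0.96 and 0.97 within batches. Within single ages it was between 0.89 and 0.98. H2-Ab1 had an r of 0.21 with the same B cell score (ρ = 0.31, permutation p = 0.0559 and 0.00429, adjusted p = 0.0692 and 0.00582), with 0.26, 0.14 and 0.23 within batches and 0.33 without the 2 farthest mice. With the replicate number as a block the r of H2-Ab1 with the B cell score was 0.18 and did not pass (adjusted p = 0.122 over the 18 relations of H2-Ab1 with members and cell type scores, 0.0647 without the block).

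**Figure D3:**
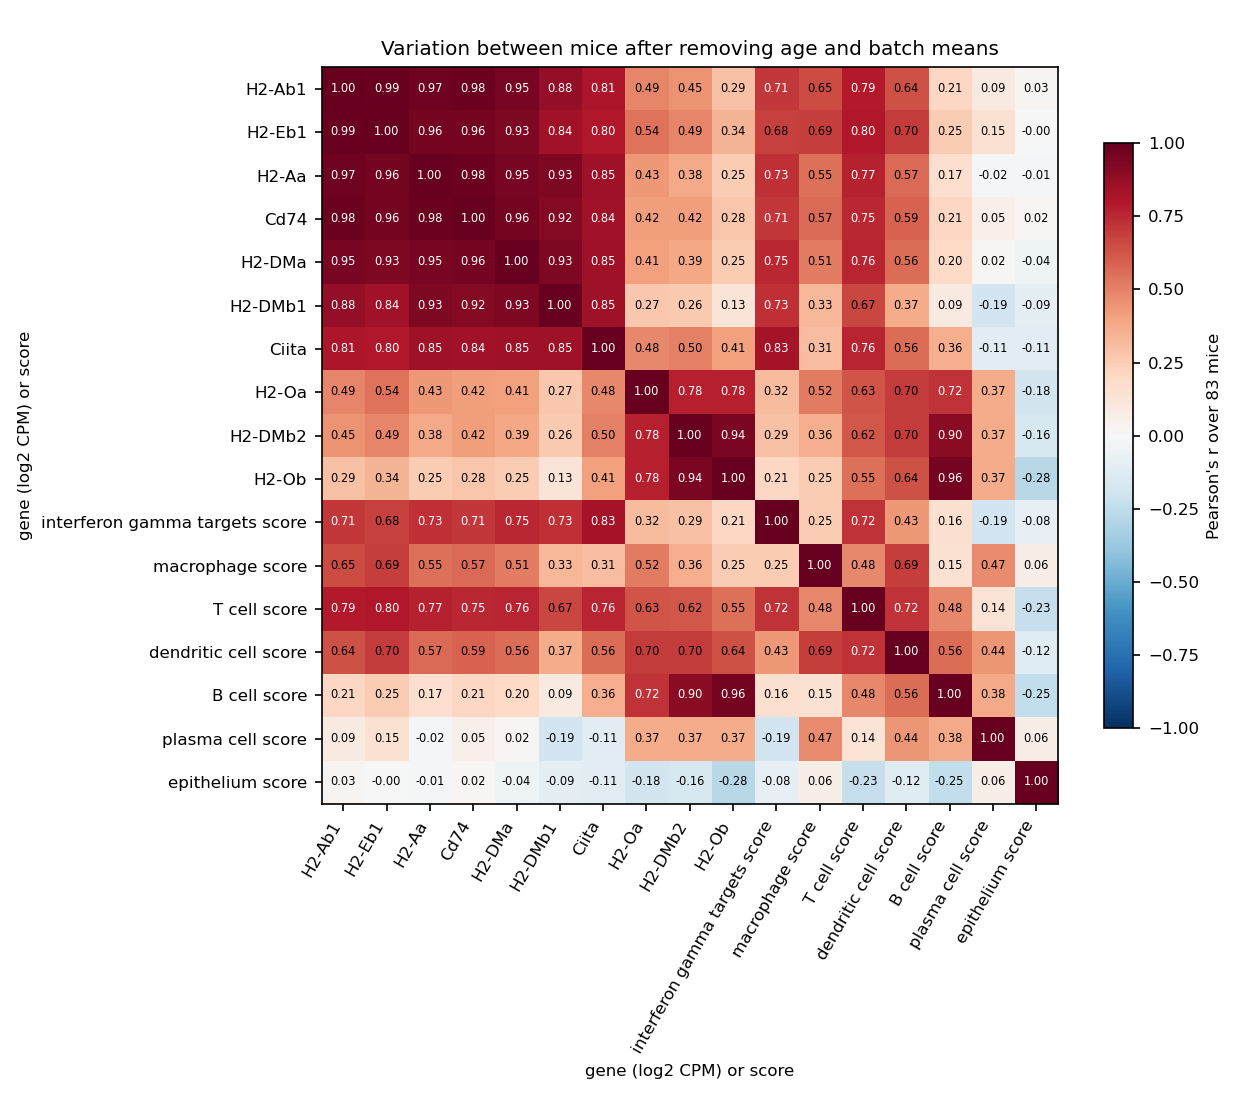
Pearson's r over 83 mice between the log2 CPM of the 10 MHC class II genes and scores of interferon gamma targets and cell type markers (mean log2 CPM of each list), after removing the means of age and batch. The 7 genes that rose form 1 block with r of at least 0.80, and H2-Oa, H2-DMb2 and H2-Ob form another with r of at least 0.78, whose r with the B cell score is between 0.72 and 0.96.

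Over the 18324 other genes tested, the 4 with the highest r to H2-Ab1 were members (H2-Eb1, Cd74, H2-Aa and H2-DMa), and H2-DMb1 and Ciita were at ranks 5 and 9. The 5 closest genes outside the family were H2-Q7 (r = 0.87), H2-Q6 (0.83), Psmb8 (0.82), Cxcl16 (0.81) and Psmb9 (0.79). H2-Q6 and H2-Q7 are class I genes that are near copies of each other, so reads can be split between them. Psmb8 and Psmb9 encode subunits of the immunoproteasome and Cxcl16 a chemokine. For Ciita the closest genes outside the family were H2-Q7 (r = 0.82), Psmb9 (0.81), H2-Q6, Cd6 and H2-Q4 (0.80 each). For H2-Ob they included Siglecg, Cd22, Fcrl1 and Ms4a1, all with r of 0.94 or 0.95 and all known from B cells, and H2-DMb2 was at rank 6. These are descriptions, with no test, and the genes of each mouse were measured in the same library at the same depth.

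**Figure D4:**
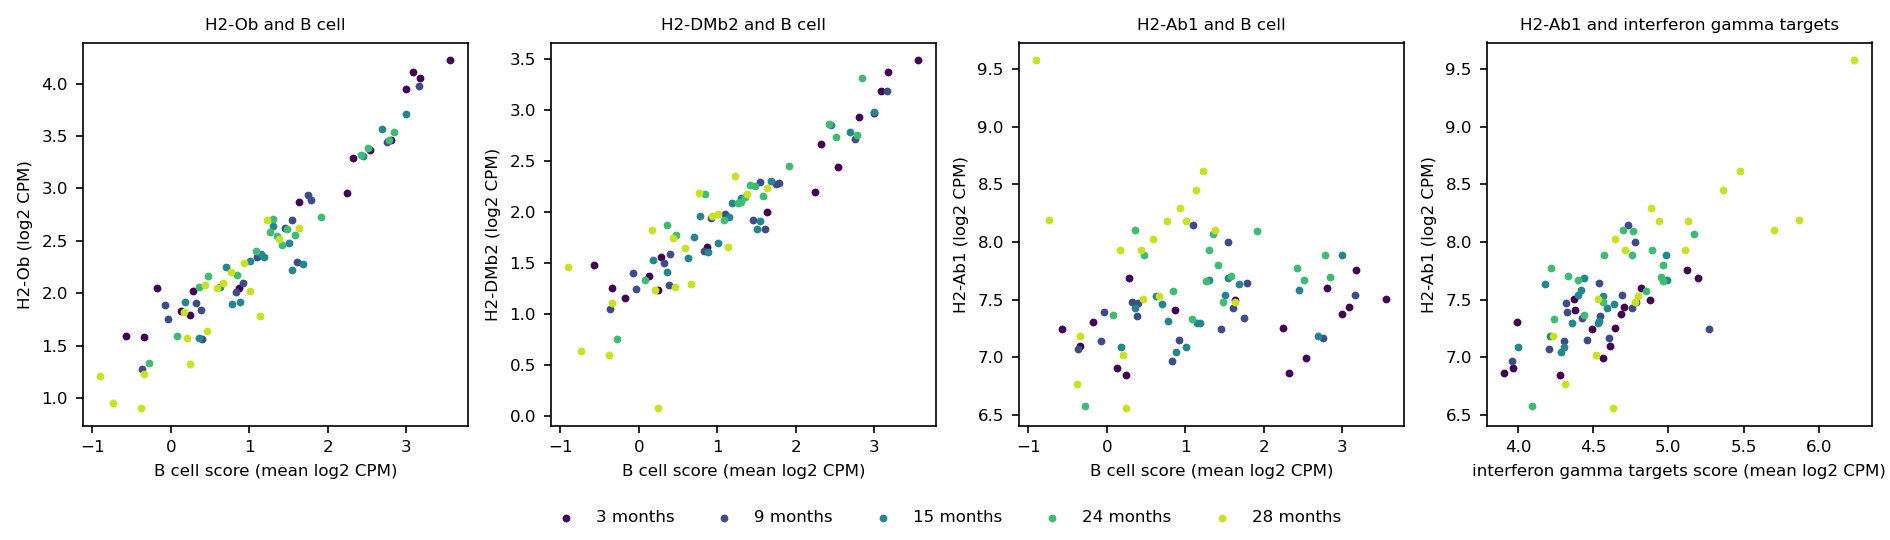
Log2 CPM of H2-Ob, H2-DMb2 and H2-Ab1 against the B cell score, and of H2-Ab1 against the score of interferon gamma targets, in each of the 83 mice, coloured by age. The points of H2-Ob lie close to a line at every age (r = 0.96 after removing age and batch means), those of H2-Ab1 against the B cell score do not (r = 0.21), and H2-Ab1 rises with the interferon gamma target score (r = 0.71), with the highest mouse at the upper right.

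Markers of B cells moved with the 3 genes that fell. Of 9 markers, which include Ms4a1, Cd79a, Cd79b, Pax5, Cr2, Blk, Fcer2a and Bank1, 8 fell and none rose at 28 against 3 months. There 25.9% of all genes were lower. The median log2 fold change of the markers was -1.31 against -0.009 over all genes. The largest falls were those of Fcer2a (-3.59), Cr2 (-3.06) and Pax5 (-1.97), and Cd79a (-0.39, adjusted p = 0.163) did not pass. Cr2 and Fcer2a encode complement and IgE receptors of mature B cells, and follicular dendritic cells carry them too. The summed markers were between 9.03 and 117 CPM at 3 months (median 39.5 CPM) and between 8.06 and 35.6 CPM at 28 months (median 20.1 CPM), and Ms4a1 was above 0 in every mouse of both ages. Of 5 markers of plasma cells 0 passed at 28 against 3 months with edgeR, 0 at an unadjusted p-value below 0.05 and 0 with DESeq2, and 1 without the 28-month replicate 1 (Derl3 0.34, adjusted p = 0.0906). Between other ages 3 were higher at 15 against 3 months (4.25% of all genes), 3 higher (16.7%) and 1 lower (17.8%) at 24 against 3 months, 2 higher at 24 against 9 months (8.93%), 4 lower at 28 against 15 months (22.2%) and 3 lower at 28 against 24 months (6.01%). With the B cell score in the model, the change at 28 against 3 months was 0.005 for H2-DMb2 (adjusted p = 0.972), -0.10 for H2-Oa (adjusted p = 0.617) and -0.25 for H2-Ob, which stayed called (adjusted p = 0.00392). In the same model H2-Ab1 (0.78), Cd74 (1.25) and Ciita (1.13) were still higher, as were the other 4 genes that rose.

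Of 16 genes known to be induced by interferon gamma 12 rose and none fell at 28 against 3 months. There 23.5% of all genes were higher and 25.9% lower, and the median of the 16 was 0.52. The largest rises were those of Iigp1 (1.56 ± 0.26, log2 ± SE, adjusted p = 1.36e-06), an immunity-related GTPase, Ubd (1.21 ± 0.27, adjusted p = 0.00016), a ubiquitin-like modifier, and Nlrc5 (0.91 ± 0.14, adjusted p = 2.56e-07), the transactivator of MHC class I genes. Without the 28-month replicate 1, an omission made for the lists after seeing the data, the change of Ubd was 0.65 ± 0.20 (adjusted p = 0.00527). Those of Iigp1 (1.42) and Nlrc5 (0.85) moved less. In that fit 11 of the 16 targets rose, Ido1 fell (-0.46, adjusted p = 0.0369) and the median was 0.37. It called 8902 of 18312 genes in either direction. Nlrc5 went from 15.8 ± 4.98 CPM at 3 months (SD, n = 16) to 30.0 ± 11.5 CPM at 28 months (n = 18). Ido1 (0.00), Cxcl10 (0.29), Gbp3 (0.17) and Psmb10 (-0.06) did not pass. Between 3 and 9 months 0 of the 16 passed with edgeR, at an unadjusted p-value below 0.05 or with DESeq2. Of all genes 8.69% passed there with edgeR. At 24 against 3 months 4 rose and 2 fell, where 16.7% of all genes were higher and 17.8% lower. The cytokine itself was close to the limit of detection. Ifng had too few counts to be tested, with a mean of 0.147 ± 0.0912 CPM at 3 months and 0.242 ± 0.216 CPM at 28 months and a highest value of 1.02 CPM. Ifngr1, which encodes a chain of its receptor, rose (0.08 ± 0.03, log2 ± SE, adjusted p = 0.0741), while Ifngr2 (0.05, adjusted p = 0.324), Jak1 (-0.07, adjusted p = 0.106) and Jak2 (0.01, adjusted p = 0.798) did not pass.

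The mean log2 CPM of the 16 targets was related to H2-Ab1 with r = 0.71 and ρ = 0.66 (permutation p = 1e-05, adjusted p = 2.53e-05 and 2.24e-05), with 0.62, 0.51 and 0.87 within batches and 0.64 without the 2 farthest mice. With this score in the model, which was added after seeing the data, all 10 members were still called at 28 against 3 months. The changes of the 7 rising genes were between 0.23 for H2-Ab1 (adjusted p = 0.0973) and 0.81 for H2-DMb1. Over all genes 7811 of 18325 were called in that comparison, against 9046 without the score. At 28 against 24 months the same model called none of the members higher and 3 lower. It called 1546 of all genes there, against 2139 without the score.

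Of 8 macrophage markers 7 rose at 28 against 3 months, where 23.5% of all genes were higher. The median of the 8 was 0.36, and Cx3cr1 (0.47), Cd68 (0.45) and Csf1r (0.45) were among those that rose. At 24 against 3 months 7 were already higher (median 0.29), against 16.7% of all genes. From 24 to 28 months 0 of 8 were called by edgeR (median 0.04), against 11.7% of all genes. There 0 passed at an unadjusted p-value below 0.05 and 0 with DESeq2. Summed, the 8 markers were between 176 and 273 CPM at 3 months and between 167 and 410 CPM at 28 months. H2-Ab1 was related to the macrophage score with r = 0.65 and ρ = 0.58 (permutation p = 1e-05), with 0.60 to 0.72 within batches and 0.67 without the 2 farthest mice. With that score in the model, added after seeing the data, H2-Ab1 rose by 0.34 (adjusted p = 0.0237) and H2-DMb1 by 1.17. All 10 members were called, as were 9144 of 18325 genes. Of 8 dendritic cell markers 0 were called by edgeR at 28 against 3 months (median -0.02), where 49.4% of all genes were. Among the 8, 0 had an unadjusted p-value below 0.05 and DESeq2 called 1. The dendritic cell score was related to H2-Ab1 with r = 0.64 and ρ = 0.58 (permutation p = 1e-05), with 0.53, 0.69 and 0.69 within batches and 0.67 without the 2 farthest mice, and to H2-Ob with the same r of 0.64 (ρ = 0.65). With the dendritic cell score in the model the rise of H2-Ab1 was 0.67.

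T cells carry the receptors that read class II molecules. The score of 6 T cell markers was related to H2-Ab1 with r = 0.79 and ρ = 0.72 (permutation p = 1e-05), with 0.70, 0.65 and 0.88 within batches, 0.76 without the 2 farthest mice and 0.34 within the 15-month mice. Of these markers 2 rose and none fell at 28 against 3 months, where 23.5% of all genes were higher, with a median of 0.12. These were Cd5 (0.45) and Cd8a (0.37), and without the 28-month replicate 1 neither passed (0.30 and 0.23, adjusted p = 0.12 and 0.119). Cd4 (0.15, adjusted p = 0.291), Cd3d (-0.03), Cd3e (-0.00) and Cd3g (0.08) did not pass. Lag3, a receptor that binds class II molecules on activated T cells, rose by 0.27 ± 0.10 (adjusted p = 0.0317). No relation of H2-Ab1 with the epithelium score was detected over all mice (r = 0.03, ρ = -0.11, permutation p = 0.755 and 0.333), with 0.16, 0.14 and -0.04 within batches and -0.13 without the 2 farthest mice. Within ages that r ran from -0.48 at 3 months to 0.43 at 28 months. H2-Ab1 was also related to the smooth muscle score (r = 0.28, ρ = 0.33, permutation p = 0.0155 and 0.0026, adjusted p = 0.0236 and 0.0043), with 0.19, 0.22 and 0.33 within batches and 0.33 without the 2 farthest mice. The relation with the endothelium score was similar in size (r = 0.26, ρ = 0.32, permutation p = 0.0212 and 0.00359, adjusted p = 0.0309 and 0.00525), with 0.46, 0.19 and 0.17 within batches and 0.33 without those mice, and it did not pass with the replicate block (0.14, adjusted p = 0.248). Of 5 endothelial markers 4 rose at 24 and 4 at 28 against 3 months, against 16.7% and 23.5% of all genes, with medians of 0.21 and 0.19. At 28 against 3 months 4 of 7 epithelial markers fell, against 25.9% of all genes, with a median of -0.10.

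Genes of the factors that bind the X and Y boxes were called in both directions. Of 7 (Rfx5, Rfxap, Rfxank, Nfya, Nfyb, Nfyc and Creb1) 1 rose and 4 fell at 28 against 3 months, where 23.5% of all genes were higher and 25.9% lower, with a median of -0.06. Nfyc (-0.06, and -0.05 without the 28-month replicate 1) did not pass without that mouse. Nfya, the DNA-binding subunit of NF-Y at the Y box, fell by 0.45 ± 0.06 (log2 ± SE, adjusted p = 9.73e-09), from 52.5 ± 9.74 CPM at 3 months (SD, n = 16) to 38.8 ± 5.17 CPM at 28 months (n = 18). Creb1, whose product binds next to the X box, changed by -0.14 and Rfx5, a subunit of the factor at the X box, by 0.12.

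Of 6 genes of antigen and invariant chain processing none rose and 2 fell at 28 against 3 months (median 0.02), where 25.9% of all genes were lower, the cathepsin gene Ctsl (-0.30 ± 0.05, adjusted p = 7.86e-06) and Ifi30 (-0.18 ± 0.04, adjusted p = 0.000177), which encodes a thiol reductase of endosomes. Ctss, the main protease of the invariant chain in antigen-presenting cells, was at 0.04 (adjusted p = 0.405), and Ctsd passed when the 28-month replicate 1 was left out (0.09, adjusted p = 0.0552). The ubiquitin ligases March1 and March8, which remove class II molecules from the surface, and Cd83, which counters March1, had values of 0.06, 0.07 and 0.19 and were not called by edgeR, with 0 of the 3 at an unadjusted p-value below 0.05, while DESeq2 called 2, as did edgeR without the 28-month replicate 1 (March8 0.08 and Cd83 0.20). Of the costimulatory genes Cd80 rose (0.25 ± 0.12, adjusted p = 0.0986, and 0.111 without that mouse) and Cd86 (0.01) and Cd40 (0.13) did not pass.

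The members on chromosome 17 lie among other genes of the class II region, and these split as well. Of 7 tested neighbours 5 rose at 28 against 3 months and 1 fell, where 23.5% of all genes were higher and 25.9% lower. Their median was 0.26. Without the 28-month replicate 1, where 8902 of 18312 genes were called, 4 rose and 1 fell. Tap1 (0.66 ± 0.11, adjusted p = 7.14e-07) and Psmb9 (0.44 ± 0.10, adjusted p = 0.000131), which prepare peptides for class I molecules and stand on the list of interferon gamma targets too, had the largest rises. H2-Eb2, a further class II β chain gene, fell by 0.76 ± 0.27 (adjusted p = 0.0161), from 2.76 ± 1.82 CPM at 3 months (SD, n = 16) to 1.63 ± 0.556 CPM at 28 months (n = 18). Brd2, which lies between H2-DMa and H2-Oa, was at -0.04 and did not pass.

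**Figure D5:**
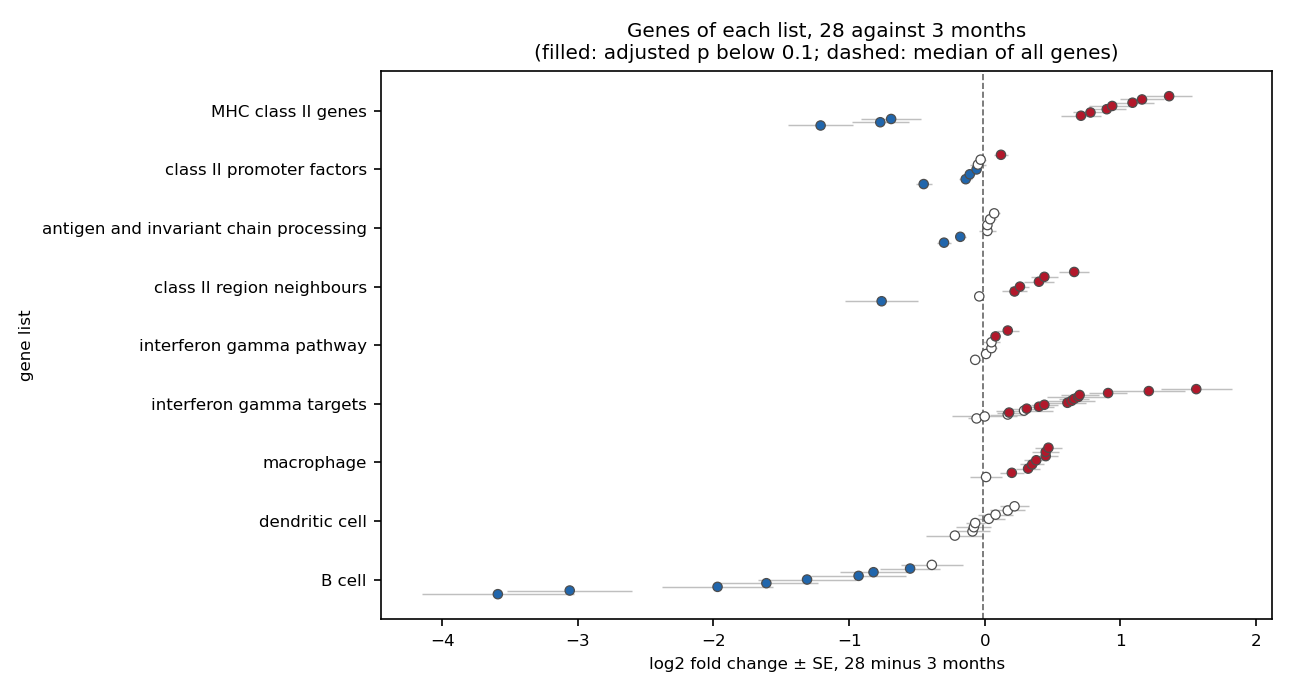
Log2 fold change with 1 standard error at 28 against 3 months for each gene of 9 lists, with the median of all genes tested as a dashed line. Filled points passed an adjusted p-value of 0.1, red higher and blue lower. The MHC class II genes stand in 2 clusters, 7 between 0.71 and 1.36 and 3 between -1.21 and -0.69, interferon gamma targets lie mostly to the right, B cell markers to the left, and dendritic cell markers around the dashed line.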

How the data were processed

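Whole-number read pair counts per gene and mouse were deposited by the authors without normalization. Adapters were removed with cutadapt 2.8, reads were filtered with PrinSeq Lite, aligned to GRCm38 with HISAT2 2.1.0, restricted to unique hits with SAMtools 1.9 and counted by strand with featureCounts (Subread 2.0.1). Ages and batches came from the sample labels. Symbols and merged exon lengths came from a GENCODE annotation of GRCm38 (37612 and 37652 of 37764 genes), and TPM was computed from the counts.

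Genes passing edgeR's filterByExpr by age (18325) were TMM-normalized and fitted over all 83 mice with age and batch (edgeR 4.0.16, R 4.3.3). The 10 pairs of ages, any age difference, and the quadratic to quartic terms of age were tested with the quasi-likelihood F-test at an adjusted p-value of 0.1. The script was tested on simulated data. Scores are mean log2 CPM (prior count 2) per list. Alternatives were DESeq2 1.42.0, its size factors, other filters, covariates, thresholds and subsets. Permutation tests used Python 3.11.15 and numpy 2.4.6.

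All 10 members are named, with at most the 3 largest called genes at 28 against 3 months of each pathway list and the 5 genes nearest to H2-Ab1 and Ciita. H2-Ob as a reference and other named list genes were chosen after their values were seen, and members and lists with earlier results of these data known. Counting limits the precision least for Cd74 (at least 7824 counts) and most for H2-Oa (2 to 165). Some listed genes are not reported here.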

Additional observations from a re-analysis of the deposited data

How the results depend on the processing

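At 28 against 3 months all 10 calls held with DESeq2, its size factors, both other filters, no batch term, the replicate block, the epithelium, dendritic cell, macrophage and interferon gamma target scores, a threshold of 0.05, a fit of 2 ages, and without the 28-month replicates 1 or 6, and 8 held with the B cell score. There H2-DMb2 was no longer called and went from -0.77 to 0.005, and at 28 against 15 months its value went from -0.46 to 0.03. Over all genes 9048 of 18325 were called at 28 against 3 months with the B cell score, against 9046 without it. These scores are measured in the same libraries, and the cause of a lost call was not tested.

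Of the 45 calls of a member in 1 comparison, none was lost with DESeq2, its size factors or no batch term. None was lost with at least 10 counts in 42 mice either. The epithelium score lost 1, the replicate block 3, a fit of 2 ages 4 and the B cell score 5, beside the 2 of H2-DMb2 given above. Lost calls were 8 each without a filter, at 0.05 and with the dendritic cell score. They were 9 with the macrophage score and 12 with the interferon gamma target score. Ciita at 24 against 3 months (adjusted p = 0.0682) was among those lost without a filter, at 0.05 and with the epithelium, dendritic cell and macrophage scores. Counts of called members moved by over 1.5 times as follows. At 9 against 3 months 1 was called in place of 0 with the epithelium, dendritic cell or interferon gamma target score. Of 18325 genes these scores called 1157, 1805 and 1665, in place of 1593. At 15 against 3 months the B cell or epithelium score called 1 member. The dendritic cell score or a fit of 2 ages called 2, and the interferon gamma target score 3. Over all genes these 5 settings called, in this order, 1557, 1470, 1768, 1183 (of 17450) and 1478, in place of 1420. At 24 against 9 months 0 in place of 4 were called without a filter, with the dendritic cell or macrophage score and at 0.05. All genes called were 2284 of 37764 without a filter, 2070 with the dendritic cell score and 2009 with the macrophage score, in place of 2837. At 24 against 15 months DESeq2 and the replicate block called 1 and a fit of 2 ages called 6, in place of 0. They called 2674 of 18315, 2131 of 18325 and 3339 of 17506 genes, in place of 2476. With the interferon gamma target score 5 (2 higher, 3 lower) in place of 9 were called at 28 against 15 months. At 28 against 24 months that score called 3 (0 higher, 3 lower) in place of 7, and a fit of 2 ages 3 (1 higher, 2 lower). Over all genes the score called 5779 in place of 7761 and 1546 in place of 2139, and the fit of 2 ages 2023 of 17661. Leaving out the 28-month replicate 1 or 6 gave 3 to 7 at 28 against 24 months, and 2028 of 18312 or 2000 of 18314 genes. Departures from a straight line were 1 with DESeq2's size factors, at least 10 counts in 42 mice, no batch term or the B cell score. They were 2 with DESeq2 or the epithelium, macrophage or interferon gamma target score, and 4 with the dendritic cell score, in place of 0. Over all genes these settings called between 2261 (interferon gamma target score) and 4063 (epithelium score), in place of 2969.

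The labels' replicate numbers do not pair the mice: over 161 pairs with the same number the median correlation of deviations was 0.007 (-0.407 to 0.355), and 2 of 83 mice correlated best with their own number. The block called 10 members at 28 against 3 months (8626 of 18325 genes) and 5 at 28 against 24 months (1780 genes). Of the 18 relations of H2-Ab1 with members and cell type scores, adjusted among themselves, it called 13 in place of 15.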
